A study of Homo sapiens with 14 samples.

Results

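The data were lists of adenosines that read as guanosine in polyadenylated RNA of HEK293T, an established line of human embryonic kidney origin in which plasmids are readily introduced. The sites described here are those that both DECOR libraries listed, that none of the 12 libraries of other editors listed, and that had no other DECOR position within 50 bases on the same chromosome. There were 1020 of them among the 26172 distinct sites of the series. They were 11.0% of the 9304 distinct DECOR sites, 49.3% of the 2067 sites in both DECOR libraries and 51.7% of the 1972 of those that no other editor listed. The sites were chosen by their presence in the lists and by their spacing, so their recurrence in both DECOR libraries, their absence from the other lists and their isolation are descriptions.

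The cells carried 1 of 4 RNA base editors, in 7 groups of 2 libraries each. REPAIRv2 and REPAIR.t1 were sampled with the NT and EZH2_A22 guides, dCas13d-ADAR with the NT and EZH2 guides, and DECOR with the MALAT1 guide alone. NT and A22 are not explained in the labels. Reads of the DECOR libraries had 62 and 160 cycles, those of all others 25 and 97, and in any contrast with DECOR the effects of editor, guide and cycle number cannot be told apart. Cells without an editor were not among the samples used here, and sites that need no editor cannot be picked out.

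As background, deamination turns adenosine into inosine, which sequencing reads as guanosine. ADAR enzymes, the source of the deaminase in the REPAIR editors, act on double-stranded RNA and can modify many adenosines along a single duplex. DECOR is built on an evolved bacterial deaminase, the kind of enzyme named in the title of the series. Its ancestor, TadA, modifies the wobble base in the anticodon loop of a transfer RNA, where a single adenosine is the substrate. Spacing between edited positions is therefore a feature worth describing for either kind of enzyme.

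Positions are given in hg19 (GRCh37), the build named in the submitters' processing notes. Genes, exons, strand and neighbouring bases were not analysed here, because no sequence or annotation of that build was used. The lists give a fraction per site, here called the editing level, with no read count, so the depth behind each level is unknown and no counting interval is given. Whether the pair of libraries in a group stems from separate cultures is not stated, and the p-values measure only the spread between libraries, which may be technical.

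Sites close together were common in the DECOR lists, and the isolated sites were what remained beyond them. Of the 1972 private sites in both libraries, 504 had another DECOR position within 10 bases and 143 had the nearest at 11 to 20 bases. The number per step of 10 bases was 118 at 31 to 40 bases, 65 at 41 to 50 bases and 76 at 51 to 60 bases. No drop fell at the limit of 50 bases itself, but the number had dropped just before it. Among the isolated sites the median distance to the nearest DECOR position was 577 bases, with quartiles at 117 and 3205 bases. For 590 of them (57.8%) another DECOR position lay within 1000 bases, and for 139 (13.6%) the nearest was over 10000 bases away.

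**Figure D1:**
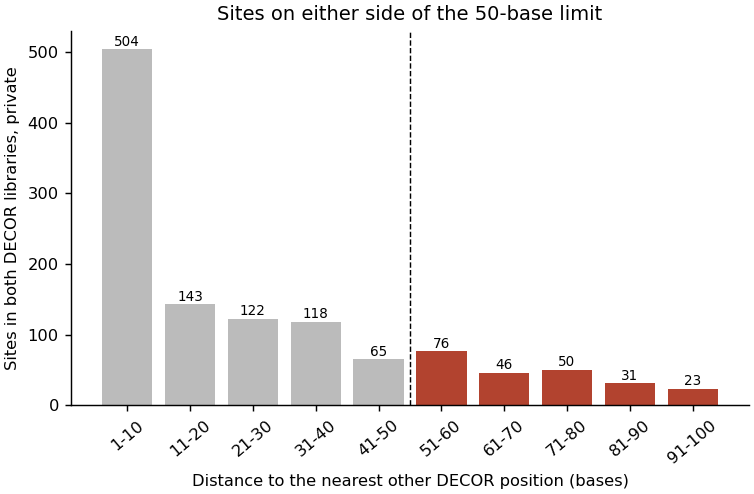
Number of private sites in both DECOR libraries (vertical axis) by distance in bases to the nearest other position of either DECOR list (horizontal axis, steps of 10 bases up to 100). The dashed line is the limit of 50 bases, red bars are isolated sites, and the tallest bar holds the 504 sites with another position within 10 bases.

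Levels on either side of the limit overlapped. The 5 sites just inside all had their nearest DECOR position at 51 bases. These were positions 29069455 and 156281846 on chromosome 1, 2912759 on chromosome 12, 9727608 on chromosome 2 and 2446431 on chromosome 20, with mean levels of 0.298, 0.186, 0.206, 0.171 and 0.107. The 5 just outside, at 49 or 50 bases, were positions 153640050 and 160183957 on chromosome 1, 4360994 on chromosome 19, 148885063 on chromosome 5 and 160200762 on chromosome 6. Their mean levels were 0.192, 0.317, 0.262, 0.194 and 0.240, overlapping those just inside.

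Most isolated sites were edited at moderate levels, and few reached 0.5. In DECOR replicate 1 their levels ran from 0.0800 to 0.769 with a median of 0.222 and quartiles at 0.171 and 0.286. In replicate 2 they ran from 0.0845 to 0.789 with a median of 0.220 and quartiles at 0.167 and 0.286. A level of at least 0.5 was listed for 28 sites in replicate 1 and 26 in replicate 2, which is 2.75% and 2.55%. Both libraries thus gave nearly the same distribution.

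Site by site the libraries differed by a median of 0.0418. The difference was at most 0.05 for 587 sites (57.5%) and at most 0.1 for 852 (83.5%), and it exceeded 0.2 for 27. Replicate 1 was the higher for 521 sites, replicate 2 for 470, and 29 sites had the same level in both. The mean difference of replicate 1 minus replicate 2 was 0.00256, with an SD of 0.0779 across sites. Across the 1020 sites, which are not independent replicates and share the same libraries, Pearson's r was 0.689 and Spearman's rho 0.703, given as descriptions.

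Differences grew with the level. The 149 sites with a mean level below 0.15 differed by a median of 0.0178 between libraries, and the 69 sites at 0.4 or above by 0.0983. Relative to the level this was 13.7% and 22.2%. The highest sites thus differed more between the libraries than the lowest. No DECOR level was under 0.0597, which bounds the difference that a low pair can show, and depth is unknown.

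**Figure D2:**
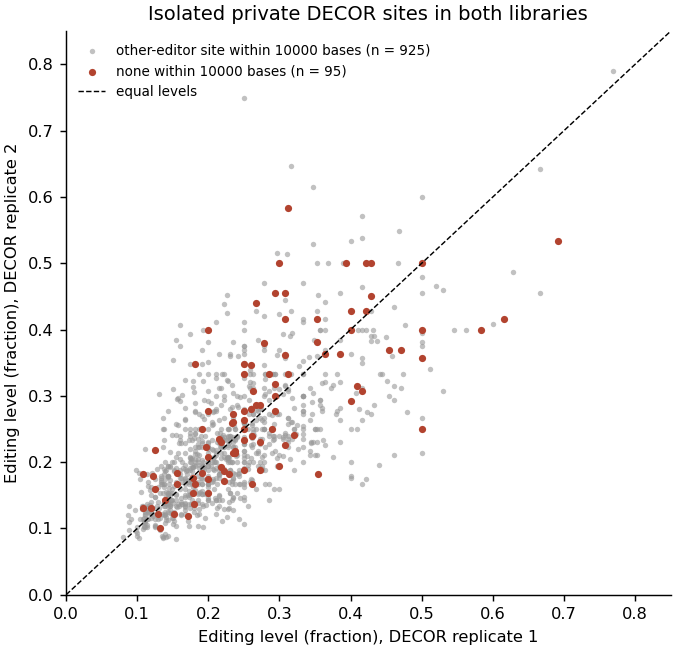
Editing level as a fraction in DECOR replicate 1 (horizontal) and replicate 2 (vertical), 1 point per isolated site; red points are the 95 sites with no site of another editor within 10000 bases, grey points the other 925, and the dashed line marks equal levels. Most points lie near the line, and the point farthest from it is the site on chromosome 19 listed at 0.250 and 0.750.

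The highest sites were spread over the genome and were listed at about equal levels in only part of the cases. The 15 with the highest mean level lay on 10 chromosomes, at mean levels of 0.494 to 0.779. Of these, 8 differed by at most 0.1 between libraries and 7 by more. At the top, position 10194316 on chromosome 3 was listed at 0.769 in replicate 1 and 0.789 in replicate 2. Position 104164830 on chromosome 14 followed at 0.667 and 0.643, and position 27408296 on chromosome 10 at 0.692 and 0.533. The levels of the first and second were close in both libraries, and those of the third differed by 0.159.

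Further down, position 75370025 on chromosome 14 was listed at 0.667 in replicate 1 and 0.455 in replicate 2. Position 150239570 on chromosome 1 had levels of 0.629 and 0.486. Position 10802012 on chromosome 19 had 0.5 and 0.6. All 3 stood at 0.455 or above in both libraries. Position 12514526 on chromosome 6 was listed at 0.615 and 0.417, position 62339056 on chromosome 11 at 0.469 and 0.548, and position 142539689 on chromosome 6 at 0.6 and 0.409. Positions 37431681 on chromosome 2, 31967392 on chromosome 20 and 74014180 on chromosome 5 were each listed at 0.5 in both libraries. The last of the 15 were position 61563288 on chromosome 11, at 0.529 and 0.459, and position 105222076 on chromosome 14, at 0.417 and 0.571. Of the 15, 7 were higher in replicate 1, 5 in replicate 2 and 3 equal.

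The remaining site of the 15, position 10946689 on chromosome 19, had the widest gap of all isolated sites, with 0.250 in replicate 1 and 0.750 in replicate 2. Next were position 50957683 on chromosome 22 (0.316 and 0.647) and position 48473889 on chromosome 3 (0.5 and 0.214). Position 2811423 on chromosome 9 was listed at 0.313 and 0.583, and position 65869714 on chromosome 15 at 0.348 and 0.615. For these 5 sites the mean of the libraries describes neither of them well.

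Isolated sites stood slightly higher than the 952 private sites in both libraries that had a DECOR neighbour within 50 bases. Their medians were 0.222 and 0.220 in replicates 1 and 2, against 0.207 and 0.2 for the neighboured sites. A level below 0.2 was listed for 37.8% and 40.5% of the isolated sites and for 45.2% and 48.7% of the neighboured ones. Agreement between libraries was alike, with median differences of 0.0418 and 0.0432. The 95 DECOR sites in both libraries that another editor also listed had a median of 0.2 in each library. Of these, 55 (57.9%) were isolated, with medians of 0.195 and 0.2. Isolated private sites listed in only 1 DECOR library had medians of 0.222 in replicate 1 and 0.222 in replicate 2. Of those, 38.5% and 38.0% were below 0.2, so their levels were close to those of the isolated sites in both libraries. These contrasts are between sites of the same libraries and were not tested.

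The difference in level between isolated and neighboured sites had the same sign in the DECOR and dCas13d-ADAR libraries and in 3 of 4 REPAIR.t1 libraries. Taken over each library's whole list, the median level of isolated minus neighboured sites was 0.0143 and 0.0238 in the DECOR libraries. It was 0.0167 to 0.0227 in the 4 dCas13d-ADAR libraries and 0 to 0.0167 in the 4 REPAIR.t1 libraries. DECOR differed from dCas13d-ADAR by -0.00216 and from REPAIR.t1 by 0.00753 (two-sided exact permutation p = 0.667 and 0.533, both 0.667 after Benjamini-Hochberg adjustment over the 2 pairs). The ranges overlap, and this design of 2 and 4 libraries can give no p under 0.133. The difference from dCas13d-ADAR turned to 0.00322 with a window of 100 bases, to 0.00283 with means in place of medians and to 0.00260 without DECOR replicate 1.

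Isolated sites made up a smaller share of the DECOR lists than of the lists of the ADAR editors with long lists. Here a site counted as isolated when its own list held no other position within 50 bases. The share was 67.4% and 67.2% in DECOR replicates 1 and 2, of 5516 and 5855 sites. It was 74.1% to 75.3% in the dCas13d-ADAR libraries, whose lists had 5730 to 5834 sites, and 77.9% to 79.4% in the REPAIR.t1 libraries, whose lists had 4356 to 4784. DECOR lay below every library of both other editors.

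The mean share was 67.3% ± 0.176 in DECOR (SD, n = 2), 74.6% ± 0.512 in dCas13d-ADAR (SD, n = 4) and 78.5% ± 0.668 in REPAIR.t1 (SD, n = 4). DECOR was lower by 7.28 percentage points than dCas13d-ADAR and by 11.2 than REPAIR.t1. Each difference exceeded the spread between libraries, but the two-sided exact permutation test gave p = 0.133 for both (adjusted 0.133 over the 2 pairs), the smallest that 2 libraries against 4 allow. When only sites edited at 0.2 or more were kept, the differences were -1.07 points against dCas13d-ADAR, with overlapping libraries (exact permutation p = 0.267), and -3.77 points against REPAIR.t1 (exact permutation p = 0.133). The DECOR and dCas13d-ADAR lists overlapped in length, while the REPAIR.t1 lists were shorter than both. Read length and guide cannot be told apart from the editor in these contrasts.

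**Figure D3:**
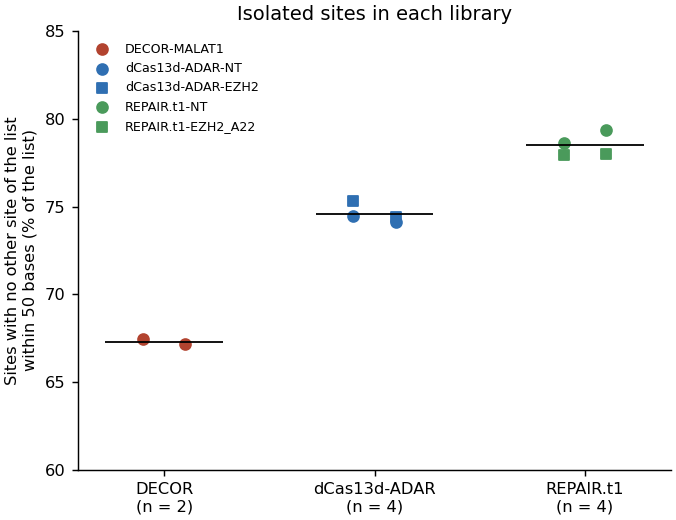
Share of each library's list with no other site of that list within 50 bases, in percent (vertical axis, starting at 60), by editor; each point is 1 library, circles and squares mark its guide group and the line is the mean. The DECOR libraries, at 67.2% and 67.4%, lie below all 8 others.

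The rule that chose the DECOR sites, applied to each group with privacy against the other editors, kept fewer sites elsewhere. It kept 423 sites for dCas13d-ADAR with NT, 396 for dCas13d-ADAR with EZH2, 225 for REPAIR.t1 with NT and 229 for REPAIR.t1 with EZH2_A22, against 1020 for DECOR. For REPAIRv2 it kept 1 site with EZH2_A22 and 0 with NT. Of the conditions in the rule, privacy differed most between groups: 95.4% of the DECOR sites in both libraries were private, against 15.4% to 21.4% in the groups of dCas13d-ADAR and REPAIR.t1, which share many positions with each other. Among private sites in both libraries the isolated share ran the other way, at 51.7% in DECOR and 67.3% to 71.9% in those 4 groups. Agreement between libraries was of the same order, with a median difference of 0.0418 for DECOR and 0.0397 to 0.0491 for the others.

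Sites isolated in their own list were listed by the other library of the group in a smaller share than neighboured sites. Of the sites isolated in their own list, 34.4% of those in DECOR replicate 1 were listed in replicate 2 and 32.8% the other way, against 43.7% and 40.5% of the neighboured sites. In REPAIR.t1 libraries the shares were 41.3% to 45.0% for isolated and 47.2% to 48.6% for neighboured sites, and in dCas13d-ADAR libraries 48.5% to 50.3% and 52.2% to 54.6%. Isolated sites were the lower in all 10 libraries. Among isolated DECOR sites of replicates 1 and 2, 34.8% and 34.4% of those below a level of 0.2 were listed by the other library. This share was 34.3% and 30.2% from 0.2 to 0.3, 30.8% and 32.5% from 0.3 to 0.4, and 40.6% and 39.0% from 0.4. The share was thus highest at the top levels, with no steady order below them. In dCas13d-ADAR libraries it was 38.6% to 43.0% below 0.2 and 58.4% to 62.4% from 0.4, and in REPAIR.t1 libraries 38.6% to 39.98% and 48.4% to 52.1%. Both directions of a group count the same shared sites, so these values were not tested.

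Although no isolated DECOR site was itself listed by another editor, many lay close to positions that were, as did many other private DECOR sites. Another editor listed a position within 10 bases of 69 isolated sites (6.76%), within 50 bases of 318 (31.2%) and within 1000 bases of 728 (71.4%). The median distance was 171 bases. No such position lay within 10000 bases for 95 sites (9.31%). The rule used only the exact positions of other editors, so these distances were not fixed by it.

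Among private DECOR sites, those with close DECOR neighbours were also nearer to other editors. Of the 952 neighboured sites in both libraries, 38.7% had another editor's position within 50 bases and 80.4% within 1000. For isolated sites in only 1 DECOR library these shares were 24.7% and 63.2% of 4628 sites, below those of the isolated sites in both. For neighboured sites in only 1 DECOR library they were 35.2% and 74.9% of 2355 sites. The isolated sites in both libraries thus lay between the other private DECOR sites, and closeness to other editors was not particular to them. These shares are descriptions, with no test.

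Near positions came mostly from the editors with long lists. A dCas13d-ADAR library listed a position within 50 bases of 146 to 177 isolated sites (14.3% to 17.4%), a REPAIR.t1 library of 115 to 124 (11.3% to 12.2%) and a REPAIRv2 library of 0 to 2. For neighboured private sites in both DECOR libraries these shares were 19.7% to 23.2% with dCas13d-ADAR and 15.8% to 18.6% with REPAIR.t1. At least 4 of the 12 libraries listed such a position for 135 isolated sites (13.2%), and at least 8 did for 34 (3.33%). These counts of libraries were not made for other DECOR sites. In the other direction, 3.22% ± 0.2003 of a dCas13d-ADAR list and 3.04% ± 0.125 of a REPAIR.t1 list lay within 50 bases of an isolated DECOR site (SD, n = 4 each). The difference of 0.174 percentage points was within reach of the spread between libraries (two-sided exact permutation p = 0.229, adjusted 0.457 over 2 measures). It was -0.0780 in NT libraries alone and 0.426 in EZH2 and EZH2_A22 libraries alone. By number, 174 to 202 sites of a dCas13d-ADAR list lay within 50 bases of an isolated DECOR site. Near neighboured private sites in both DECOR libraries there were 162 to 191, and near any DECOR site 1129 to 1217. In REPAIR.t1 lists the numbers were 137 to 145, 132 to 146 and 860 to 922.

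The nearest cases were a pair of bases apart. Position 252553 on chromosome 11, listed by DECOR at 0.143 and 0.125, lay 2 bases from position 252551, which dCas13d-ADAR listed at 0.167 in NT replicate 1 and 0.154 in EZH2 replicate 1. Position 61907236 on chromosome 17, listed at 0.2 and 0.351, lay 2 bases from position 61907234, listed by 3 REPAIR.t1 libraries at 0.179, 0.238 and 0.2 and by dCas13d-ADAR EZH2 replicate 1 at 0.136. Position 23392340 on chromosome 14, listed at 0.276 and 0.208, had position 23392342 in dCas13d-ADAR EZH2 replicate 2 at 0.138. The choice of private and isolated sites fixes that the positions differ between the editors. On chromosome 17, position 16285255 (0.132 and 0.116) and position 79846125 (0.186 and 0.171) each had a position 2 bases away in 1 dCas13d-ADAR library, at 0.101 and 0.103.

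Some of the highest isolated sites had other editors' positions nearby. Of the 15 highest, 4 had one within 50 bases and 10 within 1000, shares no greater than the 31.2% and 71.4% of all isolated sites. Position 62339056 on chromosome 11, at 0.469 and 0.548 in DECOR, lay 44 bases from position 62339100, which 3 REPAIR.t1 libraries listed at 0.172 to 0.357 and 3 dCas13d-ADAR libraries at 0.226 to 0.286. Position 61563288 on the same chromosome lay 74 bases from position 61563362, which all 4 REPAIR.t1 libraries listed at 0.217 to 0.267 and all 4 dCas13d-ADAR libraries at 0.286 to 0.483. Around position 104164830 on chromosome 14, 3 dCas13d-ADAR libraries listed position 104165171, 341 bases away, at 0.625, 0.769 and 0.692. REPAIR.t1 NT replicate 1 listed the same position at 0.385. The nearest position of another editor was 104164535, 295 bases away, in REPAIR.t1 EZH2_A22 replicate 2 at 0.333. The distances in these examples were 44, 74, 341 and 295 bases.

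Other high sites stood far from any position of another editor. Position 12514526 on chromosome 6 (0.615 and 0.417) was 790827 bases from the nearest site of another editor and 790893 from the nearest DECOR site. Position 27408296 on chromosome 10 (0.692 and 0.533) was 383821 bases from another editor's site and 1727 from a DECOR site. Farthest of all from another editor was position 146870725 on chromosome 6, at 2454484 bases, with 0.583 and 0.4; it was singled out after its values were seen.

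Isolated sites over 10000 bases from other editors had higher medians than the nearer ones. The 95 sites with no other editor's position within 10000 bases had medians of 0.261 and 0.263 in replicates 1 and 2. The 318 sites with one within 50 bases had medians of 0.211 and 0.208. In between, the 410 sites at 51 to 1000 bases had 0.227 and 0.218, and the 197 sites beyond that and up to 10000 bases had 0.217 and 0.220. The nearer 3 classes were thus close to each other, with no steady order in replicate 1. A mean level of at least 0.4 was reached by 17 of the 95 (17.9%) and by 12 of the 318 (3.77%). Both libraries showed the difference, while the quartile ranges of near and far sites overlapped. The differences between libraries were alike, at medians of 0.0420 and 0.0436.

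**Figure D4:**
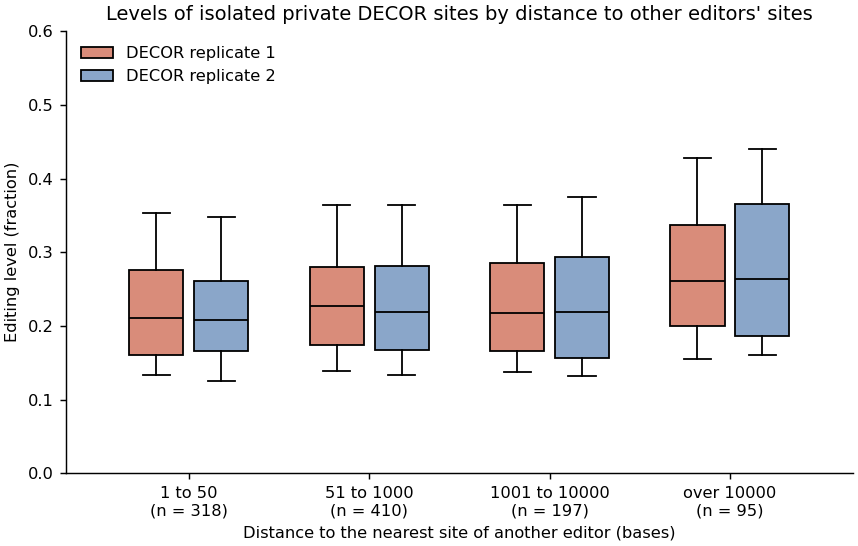
Editing level as a fraction (vertical) of the isolated DECOR sites by distance in bases to the nearest site of another editor (horizontal), for DECOR replicate 1 (red) and replicate 2 (blue); boxes span the quartiles, lines mark medians and whiskers the 10th and 90th percentiles. The medians are 0.211 and 0.208 within 50 bases and 0.261 and 0.263 beyond 10000 bases.

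By distance to other DECOR positions, too, the sites beyond 10000 bases had the higher medians. Medians were 0.213 and 0.205 for the 76 isolated sites with the nearest DECOR position at 51 to 60 bases, and 0.205 and 0.202 for the 150 sites at 61 to 100 bases. They were 0.225 and 0.222 for the 291 sites at more than 1000 and up to 10000 bases. The 92 sites from there to 100000 bases had 0.261 and 0.250, and the 47 sites beyond 100000 bases had 0.250 in both libraries. The medians did not follow the distance step by step, and the higher values were those beyond 10000 bases.

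Higher medians of far sites were present in the lists of all 3 editors with long lists. Over each whole list, the median level of isolated sites over 10000 bases from the next site of the same list, minus that of sites at 51 to 1000 bases, was 0.05 in both DECOR libraries. It was 0.0391 to 0.0486 in the dCas13d-ADAR libraries and 0.0357 to 0.0482 in the REPAIR.t1 libraries. DECOR differed by 0.00558 from dCas13d-ADAR and by 0.00750 from REPAIR.t1, with two-sided exact permutation p = 0.133 for each (adjusted 0.133), the smallest possible. The direction was positive in 10 of 10 libraries.

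Other editors' positions near the isolated DECOR sites were listed at lower levels than the rest of their lists. In the 4 REPAIR.t1 libraries the median was 0.190, 0.194, 0.2 and 0.214 within 50 bases of an isolated DECOR site, against 0.250, 0.250, 0.263 and 0.263 elsewhere. In the 4 dCas13d-ADAR libraries it was 0.211, 0.214, 0.216 and 0.211 against 0.267, 0.273, 0.269 and 0.267. Near positions were lower in all 8 libraries, with differences of -0.0632 to -0.0489. No gap beyond the spread of libraries was detected between dCas13d-ADAR (-0.0557 ± 0.00224, SD, n = 4) and REPAIR.t1 (-0.0570 ± 0.00607, n = 4), with a two-sided exact permutation p of 0.657 (adjusted 0.657 over 2 measures). The gap of 0.00127 turned to -0.000786 without REPAIR.t1 EZH2_A22 replicate 1.

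Lower levels were also listed near other kinds of DECOR sites. Around the neighboured private sites in both libraries, the difference was -0.0741 to -0.0625 over the 8 libraries. Around isolated sites of only 1 DECOR library it was -0.0339 to -0.0227, and around any DECOR site -0.0543 to -0.0469. Around neighboured sites of only 1 DECOR library it was -0.0667 to -0.0436, and around sites in both libraries that another editor also listed -0.0705 to -0.0167. All 8 libraries were lower in each of these sets. Around the isolated sites among those shared with another editor, with 10 to 20 near positions per library, it ran from -0.0632 to 0.0395 and was lower in 6 of 8 libraries. A difference between the sets was not tested.

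**Figure D5:**
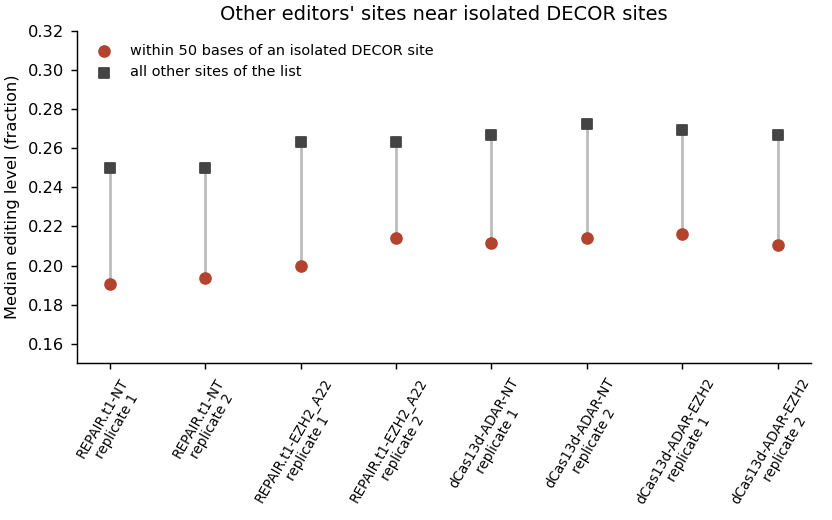
Median editing level as a fraction (vertical, starting at 0.15) in the 4 REPAIR.t1 and 4 dCas13d-ADAR libraries, for sites within 50 bases of an isolated DECOR site (red circles) and all other sites of the list (dark squares). The red circle lies below the square in all 8 libraries, at 0.190 to 0.216 against 0.250 to 0.273.

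Isolated sites lay on every autosome and on chromosome X. Chromosome 1 held 128 (12.5%) and chromosome 19 held 121 (11.9%), followed by chromosome 11 with 73 (7.16%) and chromosome 17 with 66 (6.47%). Chromosome 19 is short and rich in genes. Its share was 10.3% and 10.6% of all sites in the DECOR libraries, 12.3% to 13.1% in dCas13d-ADAR and 7.83% to 8.90% in REPAIR.t1. The share among the isolated DECOR sites thus lay between those of the REPAIR.t1 and dCas13d-ADAR lists, which were whole lists and not selected alike. Of the neighboured private sites in both libraries, 14.3% lay on chromosome 19. In the whole DECOR lists it held 9.84% of the isolated and 12.1% of the neighboured sites in replicate 1, and 9.36% and 12.2% in replicate 2. Isolated DECOR sites thus had the smaller share there. So had the isolated sites of all 4 dCas13d-ADAR libraries, at 11.4% to 12.4% against 13.9% to 17.2%. In 3 of 4 REPAIR.t1 libraries the isolated sites had the larger share.

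The share of sites on chromosomes 17, 21 and X differed between isolated and neighboured sites, and these chromosomes were picked after their values were seen. Chromosome 17 held 6.47% of the isolated and 2.63% of the neighboured private sites in both libraries. Chromosome 21 held 1.47% and 0.525%, which is only 15 and 5 sites, and chromosome X 3.92% and 6.62%. In the whole DECOR lists chromosome 17 held 6.32% and 6.53% of the isolated and 3.90% to 4.21% of the neighboured sites. Chromosome 21 held 1.45% of the isolated and 0.779% of the neighboured sites in replicate 1, but 1.04% of each in replicate 2. Chromosome X held 4.17% and 5.45% in replicate 1, and 3.79% and 5.52% in replicate 2. In dCas13d-ADAR and REPAIR.t1, 3 of 4 libraries each had the higher share of chromosome 17 among isolated sites. For chromosome 21 this held in 3 of 4 dCas13d-ADAR and 4 of 4 REPAIR.t1 libraries. For chromosome X it held in 2 of 4 dCas13d-ADAR and 0 of 4 REPAIR.t1 libraries. No test was run on these shares.

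When steps of up to 1000 bases between isolated sites were chained, 817 of them (80.1%) stood alone, and 203 fell into 92 neighbourhoods of at least 2. Other DECOR positions were not counted in these chains, and the rule barred steps of 50 bases or less. There were 75 pairs, 16 triplets and 1 neighbourhood of 5 sites. The last spanned 1262 bases on chromosome 11, from 122929461 to 122930722. Its 5 sites were listed in replicates 1 and 2 at 0.236 and 0.254, 0.188 and 0.122, 0.137 and 0.120, 0.180 and 0.236, and 0.433 and 0.286, in the order of their positions. The last of them was the highest in both libraries, and for 3 of the 5 another editor listed a position within 50 bases. This neighbourhood was singled out after its values were seen.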

How the data were processed

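Each library has 1 deposited list of sites; its A-to-G rate is a fraction between 0 and 1, per the file headers. The submitters' processing notes name cutadapt, STAR 2.6.1b, hg19 and GRCh37, without a role. For the site caller, its thresholds and the handling of genomic variants, the sources used here give nothing. The lowest deposited level was 0.0597. Depth decides which sites a library can list, and it is unknown here.

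Sites were matched by chromosome and position. Distances are to the nearest other position. With 1 value per library, exact two-sided permutation tests compared editors, with Benjamini-Hochberg adjustment; NT and EZH2 libraries of an editor were pooled. The tests of far against near sites and of other editors' sites near the DECOR sites were added after the data were seen. Other windows, level minimums, guides and left-out libraries were tried as alternatives. The sites and measures were chosen with earlier results of these data known. Named sites are the 15 highest mean levels and the 5 largest differences between libraries. Also named are the 5 on each side of the limit and the 5 nearest to another editor, with ties cut at 5. Others are said to be chosen later. The rule recovered 100% of the sites planted in simulated lists. Planned analyses of sequence, hairpins, genes and gene groups were not run. Python 3.11.15, numpy 2.4.6, pandas 2.3.3, scipy 1.17.1 and matplotlib 3.10.9 were used.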

Additional observations from a re-analysis of the deposited data

Results flagged for a closer look

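The median level of isolated minus neighboured sites was 0.0167 in dCas13d-ADAR EZH2 replicate 2, apart from the 0.0227 of the other 3 libraries of that editor. It was 0 in REPAIR.t1 NT replicate 1, apart from 0.0147, 0.0147 and 0.0167 in the others. Chance sets about 1 in 20 such groups apart, and these medians take few distinct values.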

How the results depend on the processing

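The number of isolated sites followed the rule: 670 with a window of 200 bases, 602 at a minimum level of 0.2, and 3562 to 3799 when a single DECOR library was used, since recurrence then no longer applied. It stayed within 1.5 times of 1020 with windows of 20 and 100 bases, isolation against sites in both libraries, no other editor within 50 bases, and a minimum level of 0.1. The median of the mean levels, 0.224, was 0.218, 0.226 and 0.229 with windows of 20, 100 and 200 bases, 0.217 with isolation against sites in both libraries, 0.229 with no other editor within 50 bases, 0.286 at a minimum level of 0.2 and 0.214 to 0.217 with 1 DECOR library. The level of isolated minus neighboured sites, DECOR minus dCas13d-ADAR, turned to 0.00322 (100 bases) and 0.00283 (means, chosen after seeing the data) and ran from -0.00693 to 0.00260 with a library left out. The share of a list near isolated sites turned to -0.0780 with NT libraries, and the difference in level near them ran from -0.000786 to 0.00398 with a library left out; the causes were not tested. With the replicate number as a block, the exact permutation p for the isolated share was 0.222 for both pairs. With 2 libraries against 4 no p under 0.05 is possible with or without the block, so no call could change. Differences between same-numbered libraries correlated at -0.226 to 0.0674 over 10 pairs of groups, with 27 to 1665 sites per pair. This covers levels only, and a batch shared by number in depth or in the sites listed was not tested. The difference in isolated share stayed negative under all alternatives run, from -7.58 to -1.07 points against dCas13d-ADAR and from -13.4 to -3.77 against REPAIR.t1. Alternatives that need sequence (TAC, TACG and hairpins) were not run, and unknown depth limits every count of sites.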
